A study of Mus musculus with 11 samples.

Results

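A set of 10 cartilage genes was followed in the mouse jaw joint: the chondrocyte transcription factors Sox9, Sox5 and Sox6, the aggrecan gene Acan, the link protein gene Hapln1, the cartilage oligomeric matrix protein gene Comp, the matrilin genes Matn1, Matn3 and Matn4, and Ucma. They were chosen by name, and all 10 of them were found among the 23420 gene symbols of the count table and passed the filter on low counts, which kept 14531 genes. RNA with poly-A tails was sequenced from mandibular condylar fibrocartilage, the tissue that caps the condyle of the lower jaw, with all its cells together. The animals were C57BL/6 females, ovariectomized at 6 weeks of age and sampled at 7 weeks after 1 week of treatment. Every group thus lacked ovaries, and estradiol was given back only in the E2 groups. The KO E2 group (3 samples) was estrogen receptor alpha knockout (ERalphaKO in the labels) with a slow-release pellet of 0.01 mg estradiol (E2). The KO Plb group (3 samples) had the same genotype and placebo (Plb). The WT E2 group (3 samples) was wild type with the estradiol pellet, and the WT Plb group (2 samples) was wild type with placebo. The labels number the replicates without saying that they are separate animals, and each p-value reflects only how far these samples spread, a spread that may be technical. They also do not say how the receptor gene was inactivated or in which cells.

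SOX9 is the transcription factor that sets and keeps chondrocyte identity, and SOX5 and SOX6 are partners that strengthen its action on cartilage matrix genes. Aggrecan, held on hyaluronan by link protein, gives cartilage its resistance to compression, while COMP and the matrilins are multi-subunit adaptors that tie collagen fibrils to other matrix proteins. UCMA is a small secreted cartilage protein that carries vitamin K-dependent Gla residues.

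Of the 10 genes, Matn4 responded to estradiol most clearly: in WT tissue it fell to 0.399 times its placebo level, and it was the only one of the 10 called there. In KO tissue Matn4 was at 0.708 times its placebo level, which was not called. The difference between its estradiol effects in WT and KO was not called either (adjusted p = 0.135). The transcription factors, Acan, Hapln1 and Comp did not pass the test in any of the 6 comparisons. Between genotypes, Matn4 was higher in KO E2 than in WT E2 tissue, whereas Matn1 was lower. Matn1 passed the filter only through WT libraries and had 2 to 3 counts in each KO E2 library, so its call is weak. Averaged over both agents, Matn4 was higher and Ucma lower in KO than in WT. Called means an adjusted p under 0.05 in the quasi-likelihood test of edgeR, with p-values adjusted over all 14531 genes of a comparison.

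Libraries held 15.7 to 25.5 M counts. Levels are given as CPM, counts per M of the library total scaled by TMM, and 3 counts, used as the floor, equal 0.118 to 0.204 CPM. The floor covers counting error only. Standard errors and intervals come from the fit and include its estimate of the spread between libraries. Esr1, the gene of the receptor, was at 2.55 to 4.86 CPM in the KO libraries and at 6.43 to 13.4 CPM in the WT libraries, which did not overlap. Averaged over agents its log2 difference was -1.25 (SE 0.21, adjusted p = 0.00478), and whole-gene counts do not show how the gene was inactivated. Collagen type II (Col2a1), the main cartilage collagen, was at 3706 to 9895 CPM in KO and at 7224 to 14720.4 CPM in WT libraries, and it was not called in any comparison. Summed markers of the fibrous layer and tendon were at 87020 to 109700 CPM in KO and at 77110 to 106600 CPM in WT libraries. Those of osteoblasts and osteocytes were at 62140 to 85640 CPM in KO and at 55640 to 86580 CPM in WT libraries. Marker RNA of cartilage, fibrous tissue and bone was thus present, and the share of each tissue was not tested. WT Plb 2 stood apart: the ribosomal precursor Rn45s took 16.04% of its counts, against 1.83% to 3.13% elsewhere, and its 15 skeletal muscle markers summed to 1458 CPM, against 44.69 CPM in WT Plb 1. Fewer cells of a type and less RNA per cell cannot be told apart in these tissue samples.

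Levels per kilobase of exon spanned more than 3 orders of size. Comp had the highest mean, at 737 CPM per kb, followed by Acan at 171 and Hapln1 at 134 CPM per kb. Sox9 followed at 21.6, and then Matn4 at 8.07, Matn3 at 7.17, Sox5 at 4.97 and Sox6 at 4.46 CPM per kb. Ucma and Matn1 were at 0.854 and 0.187 CPM per kb. The order of Matn4 and Matn3 was not fixed: per kb, Matn4 was above Matn3 in KO E2 (7.91 against 5.42) and in KO Plb (11.2 against 2.57), close to it in WT Plb (9.84 against 9.20), and below it in WT E2 (3.93 against 12.2). By mean CPM Comp, Acan and Hapln1 ranked 35, 50 and 83 among the 14531 genes tested. The highest library exceeded the lowest 12.2-fold for Matn1, 12.1-fold for Matn3 and 8.66-fold for Ucma. The same ratio was 3.42 for Matn4 and 1.82 to 2.64 for the other 6 genes.

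**Figure D1:**
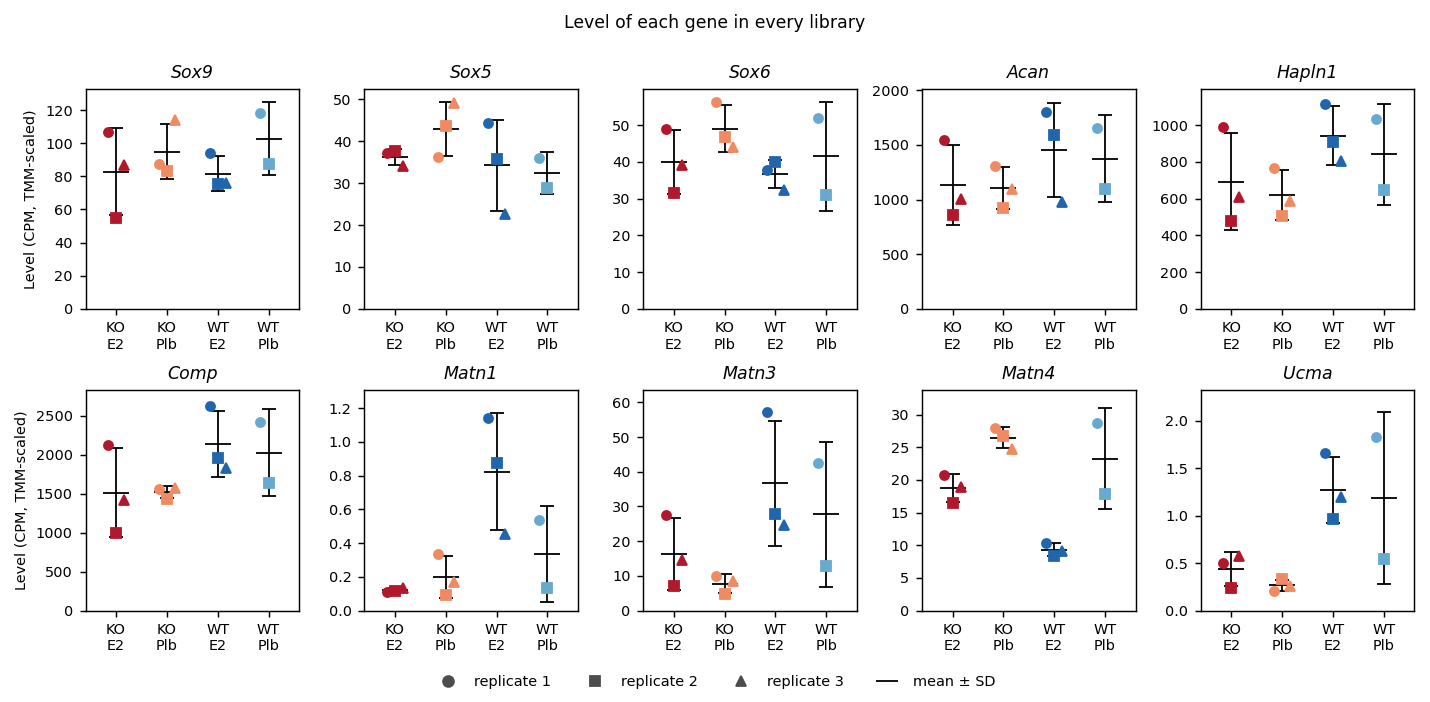
Level of each of the 10 genes (CPM, TMM-scaled, linear axes from 0) in every library of KO E2, KO Plb, WT E2 and WT Plb. Symbols give the replicate, and black bars the mean and SD. Matn4 in WT E2 (8.42 to 10.3 CPM) lies below every other group, and Matn1 in KO E2 lies below every WT E2 library.

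Sox9 levels were 107, 54.8 and 86.7 CPM in the KO E2 libraries, 87.6, 83.1 and 114 CPM in KO Plb, 93.8, 75.5 and 75.8 CPM in WT E2, and 118 and 87.4 CPM in WT Plb. All groups overlapped. Estradiol against placebo gave a log2 fold change of -0.33 (SE 0.26, adjusted p = 0.648) in WT and -0.20 (SE 0.23, adjusted p = 0.75) in KO. The averaged difference between KO and WT was -0.05 on the log2 scale, with a 95% interval of -0.44 to 0.34. Under E2 alone it was 0.02 (SE 0.23, adjusted p = 0.969), and its sign changed with the processing.

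Sox5 levels were 37.2, 37.7 and 34.2 CPM in KO E2, 36.2, 43.6 and 49.1 CPM in KO Plb, 44.3, 35.9 and 22.7 CPM in WT E2, and 35.9 and 28.9 CPM in WT Plb. The 3 KO Plb libraries lay above both WT Plb libraries, though KO Plb 1 and WT Plb 1 were nearly equal, and the other comparisons overlapped. Under placebo the log2 difference was 0.41 (SE 0.23, adjusted p = 0.59). Sox6 levels were 49.0, 31.6 and 39.2 CPM in KO E2, 56.4, 46.8 and 44.0 CPM in KO Plb, 37.7, 39.9 and 32.4 CPM in WT E2, and 52.0 and 31.0 CPM in WT Plb. Every pair of Sox6 groups that was compared overlapped. The estradiol fold change of Sox6 in KO was -0.30 on the log2 scale (SE 0.20, adjusted p = 0.513), and its averaged KO difference was 0.18 (SE 0.15, adjusted p = 0.465).

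Acan levels were 1550.1, 855 and 1007 CPM in KO E2, 1309, 921 and 1093 CPM in KO Plb, 1800.1, 1588 and 974 CPM in WT E2, and 1659 and 1093 CPM in WT Plb. The lowest WT library, WT E2 3, lay within the KO range, so the groups overlapped. Acan, the core protein of the large proteoglycan, had an estradiol fold change of 0.08 (SE 0.32) in WT and 0.04 (SE 0.29) in KO on the log2 scale, with adjusted p = 0.957 and 0.965. Its averaged KO difference was -0.33 (SE 0.21, 95% interval -0.82 to 0.15, adjusted p = 0.349).

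Hapln1 levels were 990.4, 480.1 and 607 CPM in KO E2, 769.7, 506 and 586 CPM in KO Plb, 1117, 909.9 and 803 CPM in WT E2, and 1034 and 648 CPM in WT Plb. All but the highest library of each KO group lay below every library of the WT group with the same agent, and that highest library reached into the WT range. Hapln1, which locks aggrecan onto hyaluronan, had an averaged KO difference of -0.44 on the log2 scale (SE 0.21, adjusted p = 0.22). The ratio of Hapln1 to Acan counts in the same library, which does not depend on library scaling, was 0.562 to 0.639 in KO E2, 0.537 to 0.588 in KO Plb, 0.573 to 0.824 in WT E2 and 0.593 to 0.623 in WT Plb. These ranges overlapped for estradiol against placebo in both genotypes and for KO against WT under E2, and did not for KO against WT under placebo.

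Comp levels were 2128, 994 and 1424 CPM in KO E2, 1560.1, 1431 and 1577 CPM in KO Plb, 2628, 1963 and 1835 CPM in WT E2, and 2422 and 1634 CPM in WT Plb. The KO Plb libraries all lay below both WT Plb libraries, and KO E2 1 alone among the KO E2 libraries reached the WT E2 range. COMP, the thrombospondin of cartilage and tendon, had log2 differences between KO and WT of -0.41 under Plb (SE 0.28, adjusted p = 0.637), -0.50 under E2 (SE 0.26, adjusted p = 0.243) and -0.46 averaged (SE 0.19, adjusted p = 0.158). None was called. Without KO E2 1 the values were -0.83 under E2 (adjusted p = 0.0348) and -0.62 averaged (adjusted p = 0.0373), and both passed. Without KO E2 2 the comparison under E2 had adjusted p = 0.52, and without WT Plb 1 the averaged value was -0.30. Leaving out 1 library gave -0.83 to -0.26 under E2 and -0.62 to -0.30 averaged. Estradiol against placebo gave 0.08 in WT (95% interval -0.56 to 0.72) and -0.01 in KO (95% interval -0.58 to 0.56).

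The promoters of Matn4, Matn1, Matn3 and Ucma are shown because Matn4, Matn1 and Ucma were called between genotypes. The Matn1 call is weak, since Matn1 passed the filter only through WT libraries. Matn3 is shown as the remaining matrilin and was not called in any comparison. In its called comparisons Matn4 was higher in KO, whereas Matn1 and Ucma were lower in theirs. RefSeq windows of 300 bases (250 before and 50 after a start site, build GRCm38.p6) were found for 8 of the 10 genes, 14 windows in all. The counts were made on mm9, and no coordinates were converted. Capitals mark the letters GGTCA or TGACC, a single arm of an estrogen response element read on either strand. Matn4 has 2 windows on the minus strand, chr2:164405111-164405410 and chr2:164404769-164405068. Matn1 lies at chr4:130944135-130944434, Matn3 at chr12:8947679-8947978 and Ucma at chr2:4975872-4976171, all on the plus strand.
Matn4 upstream start: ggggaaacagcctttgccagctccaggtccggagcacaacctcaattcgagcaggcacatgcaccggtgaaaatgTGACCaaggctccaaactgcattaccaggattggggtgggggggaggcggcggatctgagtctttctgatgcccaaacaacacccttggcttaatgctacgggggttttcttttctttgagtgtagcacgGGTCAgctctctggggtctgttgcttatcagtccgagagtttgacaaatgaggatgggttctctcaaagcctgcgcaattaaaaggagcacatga
Matn4 downstream start: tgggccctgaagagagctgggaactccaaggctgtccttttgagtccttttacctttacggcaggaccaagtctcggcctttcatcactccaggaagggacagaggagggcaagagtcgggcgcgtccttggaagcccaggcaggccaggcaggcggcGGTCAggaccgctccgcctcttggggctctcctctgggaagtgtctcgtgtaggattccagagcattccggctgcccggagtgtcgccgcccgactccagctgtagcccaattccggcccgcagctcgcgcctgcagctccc
Matn1: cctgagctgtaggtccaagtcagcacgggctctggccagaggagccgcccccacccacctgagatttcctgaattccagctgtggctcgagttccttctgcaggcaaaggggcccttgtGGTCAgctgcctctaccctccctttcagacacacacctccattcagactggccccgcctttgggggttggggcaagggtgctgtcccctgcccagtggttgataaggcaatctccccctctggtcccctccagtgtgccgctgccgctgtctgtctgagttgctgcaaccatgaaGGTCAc
Matn3: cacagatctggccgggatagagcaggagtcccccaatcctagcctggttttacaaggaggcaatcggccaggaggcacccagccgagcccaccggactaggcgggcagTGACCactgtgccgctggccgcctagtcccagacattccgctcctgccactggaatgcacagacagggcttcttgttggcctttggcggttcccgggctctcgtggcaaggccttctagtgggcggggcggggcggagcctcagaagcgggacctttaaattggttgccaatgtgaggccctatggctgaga
Ucma: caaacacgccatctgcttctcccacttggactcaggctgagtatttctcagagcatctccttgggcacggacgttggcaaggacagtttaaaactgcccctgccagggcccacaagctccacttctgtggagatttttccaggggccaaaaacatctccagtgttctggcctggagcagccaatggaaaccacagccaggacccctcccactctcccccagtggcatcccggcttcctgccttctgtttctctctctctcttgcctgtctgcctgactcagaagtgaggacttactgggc
The single arm occurred in both Matn4 windows, in the Matn1 and Matn3 windows and in 2 of the Sox6 windows, 6 of 14 windows and 4 of 8 genes. It occurred in 40.5% of all 32841 promoter windows of that length. Upstream of the start sites the arms lay 175 and 45 bases away in one Matn4 window and 92 in the other, 142 bases away in Matn3 and 131 in Matn1, where another lay 45 bases downstream. The full element, the arm GGTCA, 3 bases of any kind and the arm TGACC, was in 0 of the 14 windows and in 0.07% of all windows. The SOX core ACAAT or ATTGT was in 5 of the 14 windows (Sox5, Sox6 and Hapln1) and in 31% of all windows. No matches overlapped one another, and a match is only a string of letters in this window.

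Matn4 levels were 20.7, 16.4 and 19.0 CPM in KO E2, 27.9, 26.7 and 24.8 CPM in KO Plb, 10.3, 8.42 and 9.15 CPM in WT E2, and 28.7 and 17.8 CPM in WT Plb. Every E2 library was below every Plb library of its genotype, and every KO E2 library was above every WT E2 library, while KO Plb and WT Plb overlapped. Matrilin 4, found in many tissues besides cartilage, is the matrilin with the broadest expression. With estradiol it fell in WT (log2 fold change -1.33, SE 0.18, adjusted p = 0.00226), rank 44 of 14531 genes by p. This call held in all 18 alternatives, with a log2 range of -1.63 to -0.94. In KO the same comparison gave -0.50 (SE 0.16, adjusted p = 0.127), which was not called, although the groups did not overlap. Same-numbered KO Plb and KO E2 libraries deviated together from their group means, though the labels do not call them pairs. With the number as a block the KO value was -0.51 and passed (adjusted p = 0.0395). That block spans all 4 groups, and same-numbered WT Plb and WT E2 libraries deviated in opposite directions (r = -0.176 and -0.188). The KO value was -0.51 without WT Plb 1 and -0.50 without WT Plb 2. It stayed uncalled in 15 of 18 alternatives, with a log2 range of -0.577 to -0.405, and adjusted p reached 0.405 without KO E2 2. The authors' deposited comparison of KO E2 over KO Plb gave -0.49 for Matn4, with an adjusted p of 0.00529 in their own test. In each fit that leaves out a WT Plb library, the lone WT Plb library is assumed to vary like the other groups, since its own spread cannot be measured.

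The estradiol effect on Matn4 in WT minus that in KO was -0.83 on the log2 scale (SE 0.24, 95% interval -1.35 to -0.31, adjusted p = 0.135) and was not called. It was called in DESeq2 (adjusted p = 0.0473) and without WT Plb 2 (-1.13, adjusted p = 0.0283), and it was -0.43 without WT Plb 1 (adjusted p = 0.353). Under E2, Matn4 was 2.01-fold higher in KO than in WT (log2 1.01, SE 0.16, adjusted p = 0.00239), and this call held in all 18 alternatives. Under placebo the log2 difference was 0.18 (SE 0.18, adjusted p = 0.746). Averaged over agents it was 0.59 (SE 0.12, adjusted p = 0.0149), called in all 17 alternatives.

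Matn1 counts were 2, 2 and 3 in KO E2, 8, 2 and 4 in KO Plb, 29, 19 and 11 in WT E2, and 10 and 2 in WT Plb. Every KO E2 library was at or under the floor of 3 counts, and all 3 WT E2 libraries were above it. Matrilin 1 is abundant in tracheal and growth plate cartilage. Its level averaged 0.121 ± 0.011 CPM in KO E2 and 0.824 ± 0.35 CPM in WT E2 (SD, n = 3 each), a log2 difference of -2.70 (SE 0.67, 95% interval -4.15 to -1.24, adjusted p = 0.023). The filter on low counts asked for at least 0.465 CPM in 2 libraries, which Matn1 reached in 0 of 6 KO and 4 of 5 WT libraries, so it was tested only through the genotype in which it is higher. With no filter it was called as well (adjusted p = 0.0249). The call was lost without WT E2 1 (adjusted p = 0.0801), WT E2 2 (0.0538), KO E2 1 (0.0615), KO E2 2 (0.074) or KO E2 3 (0.0709). Under placebo the difference was -0.77 (SE 0.75, adjusted p = 0.74), and averaged it was -1.73 (SE 0.51, adjusted p = 0.0575), which passed in DESeq2 (adjusted p = 0.0476). Without WT Plb 1 these values were 0.55 and -1.07, and without WT Plb 2 they were -1.38 and -2.04. Estradiol against placebo gave 1.22 in WT (SE 0.67, adjusted p = 0.466) and -0.70 in KO (SE 0.77, adjusted p = 0.727), and the difference between them was not called (adjusted p = 0.546). The WT value was 2.54 without WT Plb 1 and 0.61 without WT Plb 2, and the KO value was -0.12 without KO Plb 1.

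Matn3 levels were 27.5, 7.00 and 14.6 CPM in KO E2, 10.1, 4.74 and 8.41 CPM in KO Plb, 57.2, 28.0 and 24.7 CPM in WT E2, and 42.5 and 12.9 CPM in WT Plb. The KO Plb libraries all lay below both WT Plb libraries, whereas KO E2 1 lay within the WT E2 range. Matrilin 3 is a cartilage matrilin whose gene is mutated in a form of multiple epiphyseal dysplasia in humans. Its log2 difference between KO and WT was -1.85 under Plb (SE 0.71, adjusted p = 0.538), -1.16 under E2 (SE 0.63, adjusted p = 0.284) and -1.50 averaged (SE 0.47, adjusted p = 0.0934). None was called, and the averaged value passed in DESeq2 (adjusted p = 0.022). Without WT Plb 1 the value was -0.74 under Plb and -0.95 averaged, without WT Plb 2 it was -2.45 under Plb, and without KO E2 1 it was -1.75 under E2. Estradiol against placebo gave 1.08 in KO (SE 0.66, adjusted p = 0.475) and 0.39 in WT (SE 0.70, adjusted p = 0.876). The KO value was 0.49 without KO E2 1, and the WT value was 1.5 without WT Plb 1 and -0.22 without WT Plb 2.

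Matn4 and Matn3 are also set against each other, a pair chosen after its values were seen, so that the ratio restates their levels and no test is given. The ratio of their counts, not corrected for length, was 0.754, 2.35 and 1.30 in KO E2 and 2.78, 5.63 and 2.94 in KO Plb. It was 0.181, 0.301 and 0.370 in WT E2 and 0.676 and 1.38 in WT Plb. Every KO library was above every WT library under the same agent, and every E2 library below every Plb library in KO. In WT the E2 and Plb libraries also did not overlap. Against Acan, the Matn4 count ratio was 0.0053 to 0.00939 in WT E2 and 0.0134 to 0.0290 over the other 8 libraries.

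**Figure D2:**
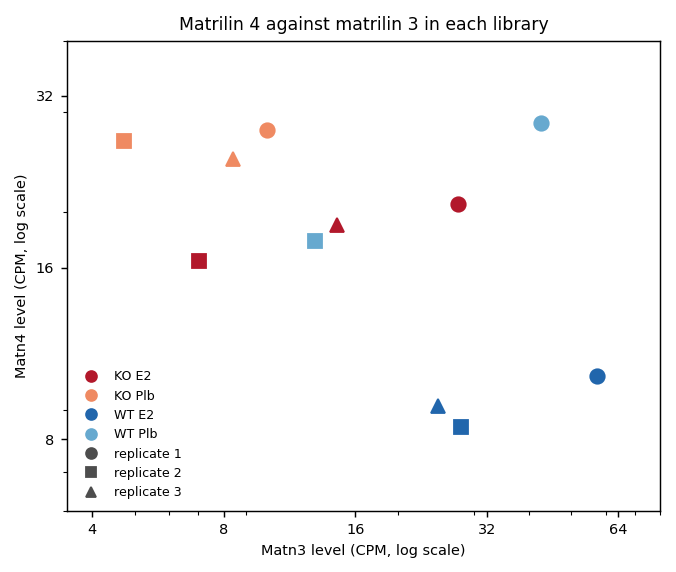
Matn4 level against Matn3 level in each of the 11 libraries (CPM, both axes on a log scale), with colour for the group and symbol for the replicate. The WT E2 libraries sit at the lower right with Matn4 at 8.42 to 10.3 CPM, and the KO Plb libraries at the upper left with Matn3 at 4.74 to 10.1 CPM.

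Ucma counts were 9, 4 and 13 in KO E2, 5, 7 and 6 in KO Plb, 42, 21 and 29 in WT E2, and 34 and 8 in WT Plb. Under each agent all KO libraries had lower CPM than all WT libraries, but WT Plb 2 (0.544 CPM) was below KO E2 3 (0.581 CPM) across agents. UCMA marks the upper zone of growth plate cartilage. Averaged over agents Ucma was 3.57-fold lower in KO (log2 -1.84, SE 0.38, adjusted p = 0.0159). That call was lost without WT Plb 1 (log2 -1.27, adjusted p = 0.0705). Ucma reached the 0.465 CPM of the filter in 2 of 6 KO and 5 of 5 WT libraries, and the call held with no filter (adjusted p = 0.0121). Under placebo alone the log2 difference was -2.17 (SE 0.57, adjusted p = 0.468) and under E2 -1.50 (SE 0.50, adjusted p = 0.074). The E2 value stayed uncalled in 16 of 18 alternatives, with a log2 range of -1.76 to -1.22, and adjusted p reached 0.213 without KO E2 2. The placebo value was -1.03 without WT Plb 1 and -2.77 without WT Plb 2. Estradiol against placebo gave 0.08 in WT (SE 0.52, adjusted p = 0.974) and 0.75 in KO (SE 0.57, adjusted p = 0.577). The WT value was 1.22 without WT Plb 1 and -0.52 without WT Plb 2.

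**Figure D3:**
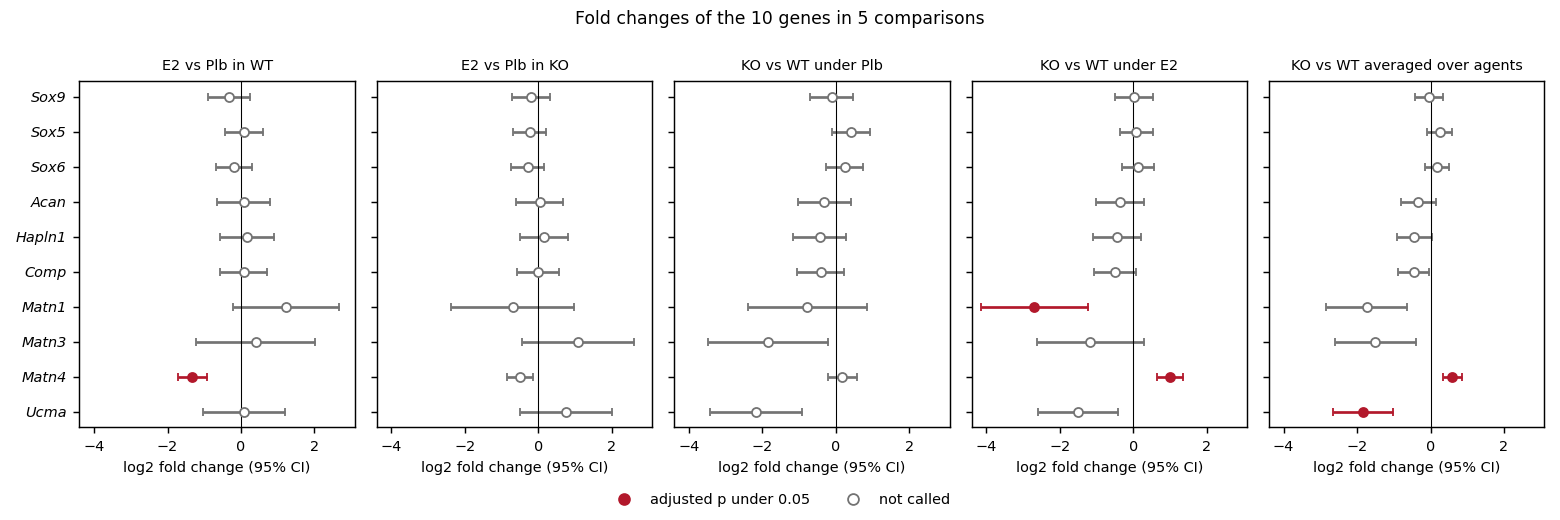
Log2 fold changes of the 10 genes (rows) in 5 comparisons (panels), with 95% intervals from the quasi-likelihood fit. Filled red points were called at an adjusted p under 0.05: Matn4 at -1.33 for E2 in WT, Matn1 at -2.70 and Matn4 at 1.01 for KO under E2, and Matn4 at 0.59 and Ucma at -1.84 for KO averaged over agents.

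The counts of called genes were read against all genes. For estradiol in WT 1 of 10 was called, lower, against 1.55% of the 14531 genes, and 1 of 10 had groups that did not overlap, against 27% of all genes. For estradiol in KO edgeR called 0 of 10, against 2.73% of all genes. There 1 of 10 had an unadjusted p under 0.05, against 16.5% of all genes. The refits with DESeq2 and limma-voom called 0, and 1 of 10 did not overlap, against 24.8% of all genes. For the interaction edgeR called 0 of 10, against 1.15% of all genes, while DESeq2 called 1 and limma-voom 0. At an unadjusted p under 0.05 there was 1 of 10, against 11.6% of all genes. The median log2 fold change of the 10 genes was 0.08 in WT and -0.10 in KO, and over all genes it was 0.00 in both.

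For KO against WT under placebo edgeR called 0 of 10, against 0.00688% of all genes, which is 1 gene. Matn3 and Ucma had an unadjusted p under 0.05 (2 of 10, against 9.21% of all genes), DESeq2 and limma-voom called 0, and 4 of 10 did not overlap, against 27% of all genes. Under E2, 2 of 10 were called, 1 higher and 1 lower (Matn1, tested only through its WT libraries), against 11.5% of all genes, and 3 of 10 did not overlap, against 34.6%. Averaged over agents 2 of 10 were called, 1 higher and 1 lower, against 7.36% of all genes. There 5 of 10 had an unadjusted p under 0.05, against 27.2% of all genes, and 0 of 10 were free of overlap, against 5.26%. The median log2 difference of the 10 genes was -0.36 under Plb, -0.40 under E2 and -0.39 averaged, beside 0.00 over all genes in each. These comparisons share libraries with one another, so their values are not separate evidence.

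Within groups the 10 genes tended to be high in the same library. All 10 were higher in WT Plb 1 than in WT Plb 2, by 1.24-fold (Sox5) to 3.96-fold (Matn1). WT E2 1 was the highest of its group for 9 genes and KO E2 1 for 7, while KO E2 2 was the lowest for 8, WT E2 3 for 7 and KO Plb 2 for 6. In KO E2, Sox9 was 1.95-fold, Hapln1 2.06-fold, Comp 2.14-fold and Matn3 3.92-fold higher in the highest than in the lowest library. Matn4 varied 1.26-fold there, and Matn1, at 2 or 3 counts a library, 1.2-fold. The summed muscle markers were 12.64 to 16 CPM in KO E2, 97.43 to 862.3 CPM in KO Plb, 38.95 to 294.8 CPM in WT E2 and 44.69 to 1458 CPM in WT Plb, with none of the 15 at 0 in all libraries. WT Plb 2, the lowest of its group for all 10 genes, was the library with the most muscle and Rn45s signal, and the part of either in these levels was not tested.

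**Figure D4:**
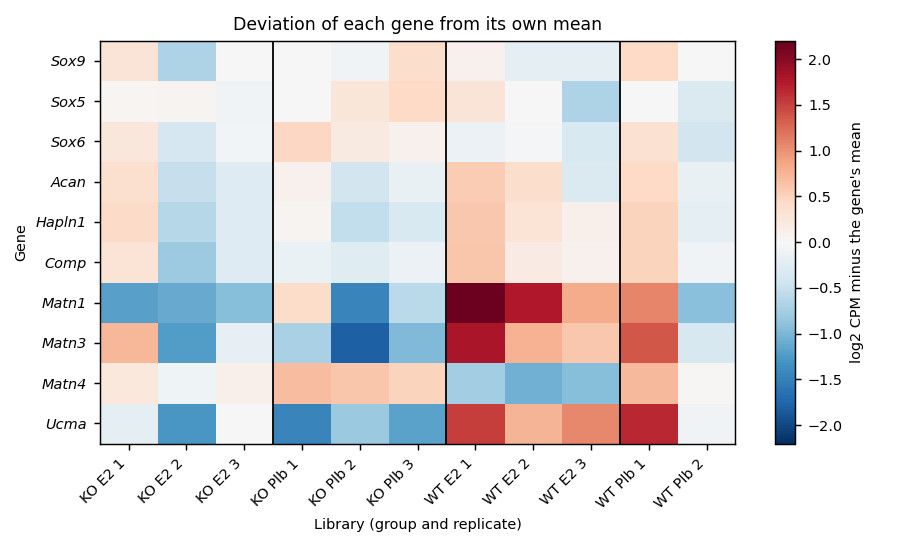
Log2 CPM of each gene (rows) minus its own mean over the 11 libraries (columns, grouped as KO E2, KO Plb, WT E2 and WT Plb), red above and blue below the mean. Matn1, Matn3 and Ucma are red in most WT libraries and blue in most KO libraries, and Matn4 is blue in all 3 WT E2 libraries.

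Markers of several other cell types moved with the same contrasts. Over all genes, 11.5% were called for KO under E2, 7.36% averaged over agents, 1.55% for estradiol in WT and 2.73% in KO. For KO under E2 and averaged, 0 of 12 fibrous layer and tendon markers and 0 of 14 skeletal muscle markers tested were called. Of 5 erythroid markers tested, 1 was called higher in each. Of 10 hypertrophic chondrocyte markers, 5 were called lower in KO under E2 and 3 averaged over agents, and their sum was 13010 to 15530 CPM in KO E2 and 14820 to 15950 CPM in KO Plb. It was 18270 to 19630 CPM in WT E2 and 16310 to 21190 CPM in WT Plb. All 14 B cell markers were called higher in KO under E2 and again averaged over agents. Their sums were 236 to 413.9 CPM in KO E2, 119.1 to 252.9 CPM in KO Plb, 23.52 to 28.15 CPM in WT E2 and 75.87 to 83.88 CPM in WT Plb. Of 14 neutrophil markers, 10 were called higher in KO under E2 and 0 averaged over agents. Their sums were 1305 to 4719 CPM in KO E2 and 8.683 to 44.43 CPM in WT E2. Under placebo the sums overlapped, at 1.606 to 762.9 CPM in KO Plb and 222.8 to 502.3 CPM in WT Plb. Of 10 osteoclast markers, 6 were called lower in KO under E2 and 5 averaged, with sums of 8415 to 9943 CPM in KO E2, 9054 to 10300 CPM in KO Plb, 12910 to 13290 CPM in WT E2 and 9265 to 11140 CPM in WT Plb. Of 10 endothelial markers, 5 were called lower under E2 and 3 averaged, with sums of 400.4 to 441.6 CPM in KO E2 and 517.4 to 566.1 CPM in WT E2. Of 12 osteoblast and osteocyte markers, 4 were called lower under E2 and 2 averaged. The list as a whole was not lower, with a median log2 difference of 0.06 under E2 and 0.16 averaged. Its sums overlapped, at 62140 to 76840 CPM in KO E2 and 55640 to 71020 CPM in WT E2. Among the called genes, Ibsp and Alpl are also counted as hypertrophic chondrocyte markers. Of 14 cell cycle genes, 6 were called higher under E2, with sums of 653.7 to 853.7 CPM in KO E2 and 465.3 to 600.2 CPM in WT E2. For estradiol in WT, 6 of 14 B cell markers were called lower. For estradiol in KO, 11 of 14 cell cycle genes were called higher, with sums of 653.7 to 853.7 CPM in KO E2 and 340.4 to 350.8 CPM in KO Plb. The part of these cells in the matrilin and Ucma results was not tested.

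Of 5 tested genes of the matrilin and thrombospondin family outside the 10, 1 was called for estradiol in WT, where 1.55% of all genes were. This was Thbs1, a secreted thrombospondin that activates TGF-beta, which averaged 459 ± 31 CPM in WT E2 (n = 3) and 125 ± 4.1 CPM in WT Plb (n = 2), a log2 rise of 1.87 (SE 0.10, adjusted p = 9.87e-07). Its estradiol effect differed between genotypes, with an interaction of 1.61 (SE 0.12, adjusted p = 8.44e-05), and under E2 it was lower in KO (log2 -1.43, SE 0.08, adjusted p = 1.53e-06). For estradiol in KO the family had 0 of 5 called in edgeR, 1 in DESeq2 and 0 in limma-voom. There 1 of 5 had an unadjusted p under 0.05, against 16.5% of all genes.

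Of the hyalectans, link proteins and hyaluronan genes, 1 of 13 tested was called higher and none lower in KO under E2, where 11.5% of all genes were called. This was Vcan, the gene of versican, the large hyaluronan-binding proteoglycan of fibrous tissue, at 197 ± 19 CPM in KO E2 and 84.9 ± 17 CPM in WT E2 (SD, n = 3 each). Its log2 difference was 1.21 (SE 0.15, adjusted p = 0.000578), while that of Acan was -0.35 (SE 0.29, adjusted p = 0.471). Averaged over agents Vcan was higher in KO by 0.87 (SE 0.12, adjusted p = 0.00151). Among partners bound by matrilins, COMP or aggrecan, 1 of 13 was called under E2 and averaged, beside 11.5% and 7.36% of all genes. This was Dcn, the gene of the small proteoglycan decorin. It was higher in KO under E2 by 0.45 (SE 0.09, adjusted p = 0.00708) and averaged by 0.36 (adjusted p = 0.00805).

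Of 37 other chondrocyte and SOX9-associated genes, 1 was called higher and 3 lower in KO under E2, a share near the 11.5% of all genes called there, with a list median of -0.33 on the log2 scale beside 0.00 over all genes. Foxa3, a forkhead factor, was lower (log2 -1.38, SE 0.26, adjusted p = 0.00639). Pth1r, the receptor of PTH-related protein, was lower (log2 -0.57, adjusted p = 0.00318), and so was Nfia, a transcription factor (log2 -0.59, adjusted p = 0.0235). Arid5a was higher by 0.58 (adjusted p = 0.00543). Averaged over agents 3 of the 37 were called, all lower, a share near the 7.36% of all genes called there. They were Foxa3 (log2 -1.34), Pth1r (log2 -0.40) and 3110079O15Rik (log2 -1.03, SE 0.20, adjusted p = 0.0194). The last is listed by RefSeq as Snorc, a chondrocyte membrane proteoglycan. Col2a1 had an averaged log2 difference of -0.88 (SE 0.29, adjusted p = 0.0948). For estradiol in WT edgeR called 0 of the 37, DESeq2 1 and limma-voom 0. There 6 of the 37 had an unadjusted p under 0.05, against 14% of all genes.

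Of the 8 other SOX family genes tested, 1 was called in KO under E2, beside 11.5% of all genes. This was Sox11, which was lower (log2 -0.68, SE 0.20, adjusted p = 0.045), a call that held in 9 of 18 alternatives. The vitamin K carboxylation and Gla protein genes, to which Ucma is related, had 0 higher and 2 lower of 12 in KO under E2, beside the same 11.5% of all genes. They were Mgp, the matrix Gla protein that restrains mineralization, at 216 ± 21 CPM in KO E2 and 373 ± 40 CPM in WT E2 (log2 -0.79, SE 0.11, adjusted p = 0.00111), and Vkorc1, which recycles vitamin K (log2 -0.41, adjusted p = 0.0192). Of 11 aggrecan- and COMP-cleaving proteases and their inhibitor, 1 was called in KO under E2, again beside 11.5% of all genes. This was Adamts15, which was lower (log2 -0.65, adjusted p = 0.0329). Averaged over agents 2 of the 11 were called, beside 7.36% of all genes. Adamts1 was lower (log2 -0.47, adjusted p = 0.0283) and Adamts9 higher (log2 0.36, adjusted p = 0.043). Of 24 genes that build and sulfate chondroitin sulfate, the sugar chain of aggrecan, edgeR called 0 in each comparison. At an unadjusted p under 0.05 there were 2 of 24 for estradiol in WT, 3 in KO and 3 for KO under E2. Over all genes 14%, 16.5% and 26.9% were under 0.05 in these comparisons. DESeq2 called 1, 1 and 0 of the 24 there, and limma-voom 0 in each. These lists share some genes, among them Col2a1, Papss2 and Chst11.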

How the data were processed

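The count table deposited by the authors lists whole-number, unnormalized counts of 23420 gene symbols in 11 samples, and 0 value columns were left unmapped. The submitters' processing notes name bcl2fastq 2.17, TopHat and build mm9; the counter, its annotation and strand setting are not given in the sources used. The authors also deposited 6 pairwise tables. Per the file headers these give a mean of normalized counts (a signal), a log2 fold change with its standard error, a test score whose formula is not stated, and raw and adjusted p-values.

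Genes were filtered in edgeR 4.0.16 (R 4.3.3) by filterByExpr (at least 10 counts in enough samples and 15 in total), which left 14531 genes with 99.98% of counts. Libraries were scaled by TMM, and 1 robust quasi-likelihood fit took in the 11 samples of all 4 groups, with 7 residual degrees of freedom. The test was checked on simulated data. Adjusted p-values are Benjamini-Hochberg over all genes of a comparison, standard errors are the log2 fold change over the root of F, and a list member not named was not called or ranked below 4th by p in its list. Levels per kb used merged exon lengths of GRCm38, which is not the authors' build. Alternatives were RLE size factors, no filter, DESeq2 1.42.0, limma-voom 3.58.1, the replicate block, only the groups compared, Rn45s removed, an adjusted p under 0.1, a promoter window of 250 bases, and leaving out each library. Same-numbered libraries of KO Plb and KO E2 deviated together from their group means (r = 0.285, 0.42 and 0.183), so the block is given beside estradiol in KO. Genes were named by a rule: the 10 genes, Esr1 and Col2a1 always, up to 4 called genes of each list, and the 3 genes most like a called member, Sox9 or Acan. The 10 genes and all lists were chosen with earlier results of these data known. No 2 libraries of a group matched within sampling noise. Overlapping genes and near-identical copies could not be separated.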

Additional observations from a re-analysis of the deposited data

How the results depend on the processing

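Over the 60 member values (10 genes in 6 comparisons) and 1057 refits, 979 kept their direction and side of the threshold, 16 gained a call, 6 lost one and 56 changed sign. Matn4 kept its calls for estradiol in WT, for KO under E2 and for KO averaged over agents in every refit. With the replicate block, 1 member was called for estradiol in KO, 4 for KO under E2 (Hapln1, Matn1, Matn3 and Matn4) and 5 averaged (Hapln1, Comp, Matn3, Matn4 and Ucma), and it changed no other count of members called. Outside estradiol in KO the numbers did not pair the samples by the rule of 3 or more pairs all over r = 0.1: WT Plb had 2 pairs with each group (r = -0.176 and -0.188 with WT E2, 0.119 and 0.186 with KO Plb, 0.103 and 0.145 with KO E2), and WT E2 gave 0.0473 to 0.0941 with KO E2 and 0.0693 to 0.122 with KO Plb. Matn3 under the block had adjusted p = 0.00935 for KO under E2 and 0.00234 averaged. DESeq2 called 1 member in the interaction and 4 averaged, and an adjusted p under 0.1 called 4 averaged. Leaving out 1 library gave 0 to 1 members for estradiol in KO, 0 to 1 in the interaction, 1 to 3 for KO under E2 and 1 to 3 averaged. Sox9 in KO under E2 turned to -0.0161 with the replicate block and -0.0241 with limma-voom. Uncalled log2 values that changed sign when 1 library was left out ranged as follows. For estradiol in WT, Sox5 ranged from -0.15 to 0.31, Sox6 from -0.51 to 0.24, Acan from -0.19 to 0.41, Hapln1 from -0.13 to 0.54, Comp from -0.18 to 0.39, Matn3 from -0.22 to 1.5, Ucma from -0.52 to 1.22, Col2a1 from -0.29 to 0.61 and Esr1 from -0.93 to 0.0855. For estradiol in KO, Sox9 ranged from -0.42 to 0.0379, Acan from -0.25 to 0.22, Hapln1 from -0.19 to 0.37 and Comp from -0.33 to 0.23. In the interaction, Sox9 ranged from -0.36 to 0.10, Sox6 from -0.21 to 0.54, Acan from -0.23 to 0.38, Hapln1 from -0.29 to 0.39, Comp from -0.17 to 0.41, Matn3 from -1.29 to 0.43, Ucma from -1.27 to 0.47, Col2a1 from -0.75 to 0.16 and Esr1 from -0.69 to 0.33. For KO under Plb, Sox9 ranged from -0.32 to 0.12, Sox6 from -0.0807 to 0.66, Acan from -0.58 to 0.0161, Matn1 from -1.38 to 0.55 and Matn4 from -0.12 to 0.57. For KO under E2, Sox9 ranged from -0.21 to 0.25, Sox5 from -0.14 to 0.31 and Sox6 from -0.0455 to 0.27. Averaged, Sox9 ranged from -0.16 to 0.0692. In most of the WT and interaction ranges the ends were the fits without WT Plb 1 and without WT Plb 2, and the cause was not tested.

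Calls over all genes moved more: 113 (without WT E2 1) to 639 (DESeq2) for estradiol in WT against 225, 105 (without KO Plb 1) to 936 (DESeq2) in KO against 396, 68 (without WT E2 1) to 554 (DESeq2) in the interaction against 167, 1 to 50 (without WT Plb 1) under Plb against 1, 867 (without KO E2 2) to 2173 (DESeq2) under E2 against 1667, and 408 (without WT Plb 2) to 1895 (DESeq2) averaged against 1069. The replicate block called 10 and 12 of the 37 chondrocyte genes under E2 and averaged, against 4 and 3. Thbs1, Vcan, Dcn, Mgp, Foxa3 and Pth1r kept every call named. Others held in part: Adamts9 in 9 of 17, Vkorc1 in 9 of 17 averaged and 14 of 18 under E2, Adamts1 in 12 of 17, Adamts15 in 13 of 18, Nfia in 14 of 18 and Snorc in 16 of 17. Promoter windows of 250 bases held the single arm in 35.2% and the SOX core in 27.7% of all genes' windows, with the same member counts. Matn1 and Ucma rest on 2 to 42 counts per library, which limits their precision.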

Other observations

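Genes with the pattern most like that of each called member, by Pearson's r of log2(CPM + 0.5) over the 11 libraries among 13151 genes with a mean of at least 1 CPM, are given as a description. For Matn4 they were Scara3 (r = 0.974), Slc26a7 (0.959) and Prr12 (0.958). For Matn1 they were Golm1 (0.959), Podxl (0.940) and Lrp4 (0.939), and for Ucma they were Enc1 (0.912), Slc13a4 (0.912) and Pigu (0.906). Sox9 was most like Mkx (0.906), Bgn (0.887) and Ppp1r13b (0.876), and Acan most like Nid2 (0.952), Lpar4 (0.951) and Col6a2 (0.944). The libraries share groups, so these values include the group differences.

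The authors' deposited tables also set groups against each other that differ in both genotype and agent. In the authors' deposited table of KO Plb over WT E2, 7 of the 10 genes had an adjusted p under 0.05: Sox6, Hapln1, Comp, Matn1, Matn3, Matn4 and Ucma. Of all genes with an adjusted p in the authors' deposited table of KO Plb over WT E2, 14.2% had one under 0.05, and this contrast differs in both genotype and agent. The log2 fold changes in the authors' deposited table were 0.42 for Sox6, -0.59 for Hapln1, -0.48 for Comp, -1.49 for Matn1, -1.92 for Matn3 and 1.49 for Matn4. In the authors' deposited table of KO E2 over WT Plb, 0 of the 10 had an adjusted p under 0.05, against 4.41% of all genes. In the authors' deposited table of KO E2 over KO Plb, Matn4 alone had an adjusted p under 0.05, against 7.52% of all genes.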
